A study of Mus musculus with 33 samples.

Results

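The genes described here are 9 VK genes of the distal part of the mouse Igk locus: IGKV9-120, IGKV17-121, IGKV9-123, IGKV9-124, IGKV11-125, IGKV14-126, IGKV17-127, IGKV9-129 and IGKV14-130. They are members of VK families 9, 11, 14 and 17, were chosen by name with earlier results of these data known, and leave out IGKV9-128 and IGKV14-126-1, rows of these families in the same stretch. They make up 9 of the 163 VK genes that the files list. VDJ-seq was used to count which VK gene had been joined to a JK element in genomic DNA of bone marrow B cell precursors that were taken from C57BL/6 mice of 4 to 5 weeks and sorted without culture. Both were sorted without IgM or IgD on the surface, pre-B cells as CD25+ and Kit- and pro-B cells as Kit+ and CD25-. Pre-B cells gave 4 Wapl+/+ libraries and 4 Wapl∆P1,2/∆P1,2 libraries, and pro-B cells gave 6 libraries of each genotype. The Wapl∆P1,2/∆P1,2 mice carry germline deletions of 2 sites bound by Pax5, namely P1 at the promoter and P2 within a deleted region downstream of Wapl, and Wapl+/+ mice carry neither deletion. A list of H3K27ac peaks, used for positions only, came from pro-B cells of another line of C57BL/6 mice, with the genotype Rag1(Cre/Cre). The study asked whether a high level of Wapl changes VK-JK recombination. Since genomic DNA was sequenced, neither the genotype nor the cell type of a library could be checked against RNA levels, and the labels do not say whether each library came from a separate mouse, so that p-values measure the spread between libraries.

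As background, the Igk locus is assembled in B cell precursors by the RAG recombinase, which cuts at a recombination signal next to each V and J segment and joins 1 of many VK genes to a JK element. A VK signal consists of a heptamer, a 12-base spacer and a nonamer. VK genes in forward orientation join by deletion of the DNA in between, and those in reverse orientation join by inversion. Cohesin extrudes chromatin loops that bring distant segments together, and Wapl releases cohesin from DNA. A first joint can be replaced by a second one between an upstream VK gene and a downstream JK element.

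The 9 genes lie on chromosome 6 within chr6:67741040-68000448 (NCBIM37, also called mm9), an interval of 259.4 kb that holds 12 VK genes in all. IGKV9-120, the member nearest to the JK elements, is 2.65 Mb upstream of IGKV3-1, the VK gene at the JK end of the cluster. From IGKV9-120 the distances upstream were 13.2 kb to IGKV17-121, 95.8 kb to IGKV9-123, 107.9 kb to IGKV9-124, 136.4 kb to IGKV11-125, 188.8 kb to IGKV17-127, 210.2 kb to IGKV9-129 and 258.9 kb to IGKV14-130. IGKV9-123 and IGKV9-124 are in reverse orientation and the other 7 genes in forward orientation. The annotation (GENCODE) lists 8 of the 9 genes under the same name as immunoglobulin V genes, 7 of them with 2 coding exons and IGKV9-124 with 1, and the study's gene list classifies these 8 as functional. IGKV14-126 is the exception. The gene list places that name at chr6:67826005-67826471, as a pseudogene with no gene annotated there. The annotation gives the name to chr6:67846171-67846636, a span that the gene list calls IGKV14-126-1. The row IGKV14-126-1 was at 0 in all 20 libraries, and which span the values listed as IGKV14-126 stand for was not settled here.

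The recombination signals are shown because genes with identical signals differed in their use. Each line gives, in mm9 and 5′ to 3′ on the strand of the gene, the heptamer and the nonamer in capitals with the spacer in lower case between them.
IGKV9-120 and IGKV9-123: CACAGTGatacaaatcataACATAAACC
IGKV9-124: CACAGTGatacaaattataACATAAACC
IGKV9-129: CACAGTGatacaaatcacaACATAAACC
IGKV11-125 and IGKV14-130: CACAGTGatacaagtcataACATAAACC
IGKV17-121 and IGKV17-127: CACAGTGctatgtcctcttACAGAAACC
IGKV14-126, span of the gene list: CAGAGTGgtccagaacttaAAAAAAAAT
IGKV14-126, span of the annotation: CACGTTGatacaagtaataACATAAACC

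The heptamer CACAGTG, the consensus, stood next to 8 of the 9 genes. Among all 162 VK genes with coordinates 66.0% had it, and among the 92 functional VK genes 89.1%. None of the 9 genes had the consensus nonamer ACAAAAACC, which 35.9% of the functional VK genes had. The nonamer of 6 genes was ACATAAACC, which differs from the consensus by A4T, counted from 1 at the first base of the nonamer and with the consensus base first, and 23.9% of the functional VK genes shared it. The nonamer of IGKV17-121 and IGKV17-127 differed by A4G. Counted from the first base of the heptamer, the signals of IGKV9-124, IGKV11-125 and IGKV9-129 differed from that of IGKV9-120 by a single letter of the spacer each, C16T, A14G and T18C. The span of the gene list for IGKV14-126 had C3G in its heptamer and C2A, C8A and C9T in its nonamer, and the span of the annotation had A4G and G5T in its heptamer and A4T in its nonamer. All signals were searched on the strand of the gene, directly 3′ of the coding sequence, and a match of letters does not show that a signal is used.

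The genes themselves fell into 1 near-identical pair and less similar sequences. IGKV17-121 and IGKV17-127 were 98.2% identical, with 9 mismatches over 501 bases, and were, among the 9 genes each compared with the other 161 VK genes with coordinates, the only ones with a match at 97% identity or more over at least 90% of the length. How reads fitting both were assigned is not given in the sources used here, so that their single values are uncertain and their sum is given as well. IGKV9-120 was 94.7% identical to IGKV9-124, 93.9% to IGKV9-129 and 87.5% to IGKV9-123.

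All values are shares, the percent value deposited for a gene divided by the sum over all VK genes of the library and multiplied by 100. The deposited sums ranged from 4.87% to 6.77% in pre-B and from 0.0740% to 0.377% in pro-B libraries, and the total behind them is not given in the sources used here. In multiples of the smallest value above 0, the libraries held 8215 to 56642 in pre-B and 164 to 6892 in pro-B cells, which shows how much thinner the pro-B data are, although such a multiple need not be a single joint. Wapl+/+ pro-B replicate 2 stood apart, with 164 multiples, 102 VK genes at 0 where the other pro-B libraries had 53 to 65, and only 6 multiples for the 9 genes together. IGKV9-124, IGKV14-126, IGKV9-129 and IGKV14-130 were at 0 in that library and in no other. The summed share of the 9 genes and the counts of calls in comparisons that include it are given with and without it. The ratios, the correlations, the sum of the reverse genes and most other values are given only with it.

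In Wapl+/+ pre-B cells the 9 genes together took between 8.93% and 9.73% of all joints, with a mean of 9.28% ± 0.336 (SD, n = 4). IGKV11-125 was the most used, at 2.29% ± 0.124 (SD, n = 4), which ranked as number 3 of the 163 VK genes. IGKV9-120 followed with 2.02% ± 0.0983 at rank 8, IGKV17-121 with 1.40% ± 0.104 at rank 26 and IGKV17-127 with 1.10% ± 0.0551 at rank 40. Lower still were IGKV14-126 with 0.762% ± 0.0586, IGKV9-129 with 0.631% ± 0.0371 and IGKV9-123 with 0.495% ± 0.0275. In each of these steps the libraries of a gene did not overlap those of the next. IGKV9-124 with 0.300% ± 0.0200 and IGKV14-130 with 0.281% ± 0.0490 came last and overlapped. IGKV11-125 and IGKV9-120 thus held 24.7% and 21.7% of the joints of the 9 genes, and IGKV14-130, whose signal is letter for letter that of IGKV11-125, held 3.02%.

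**Figure D1:**
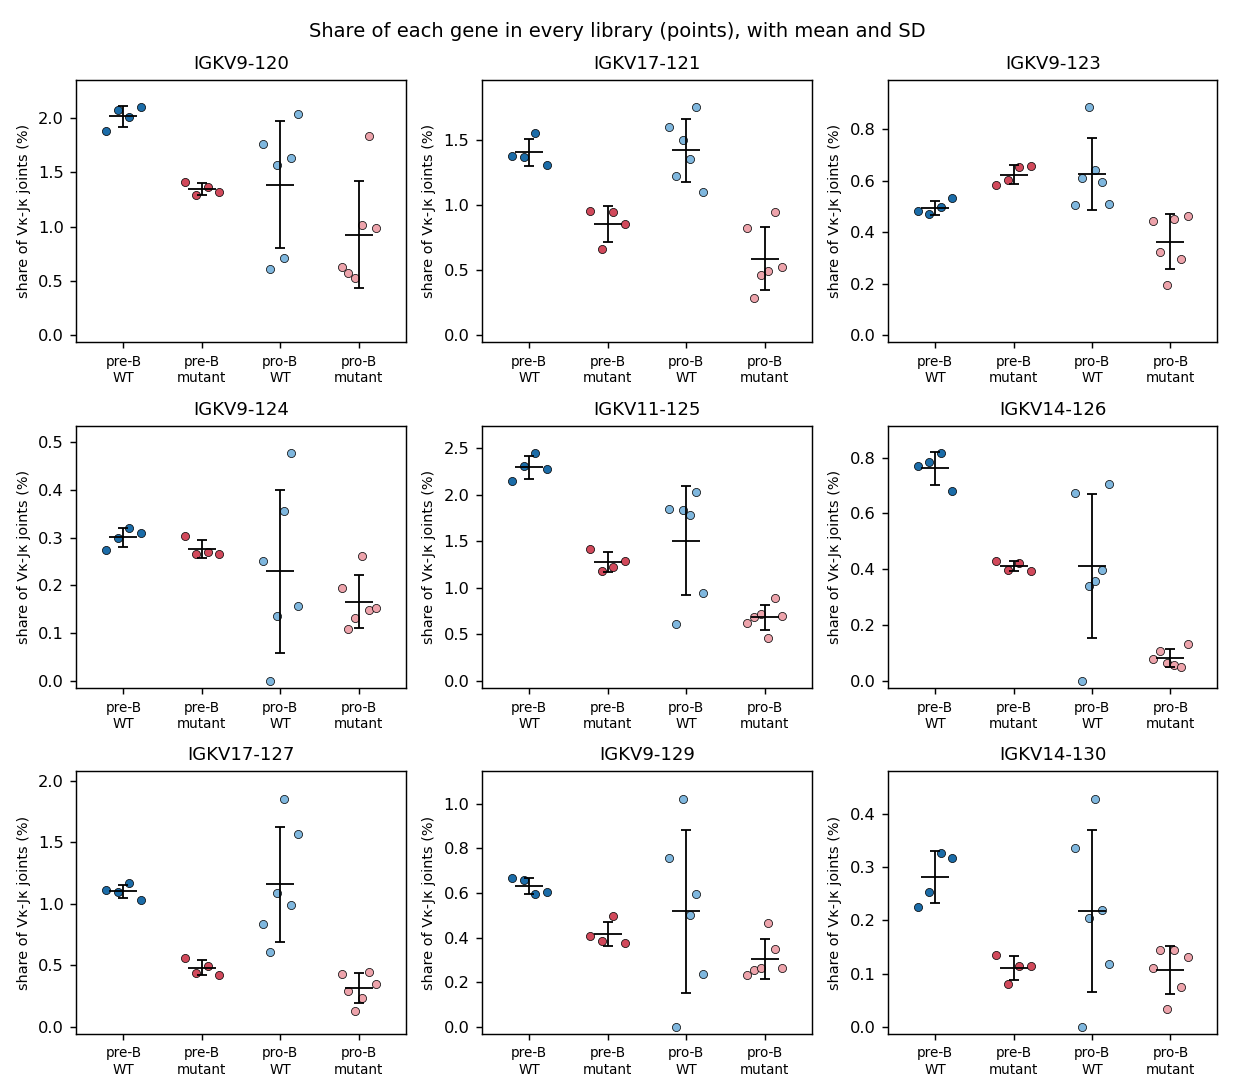
Share of all VK-JK joints (in percent, vertical axes that start near 0 and differ between panels) of each of the 9 genes in every library, as points, for Wapl+/+ (WT) and Wapl∆P1,2/∆P1,2 (mutant) pre-B and pro-B cells, with the mean (long dash) and SD (bars). The pre-B groups do not overlap in 8 panels, IGKV9-123 being the gene whose mutant libraries are higher, and the pro-B points scatter more widely, with 1 Wapl+/+ library at 0 in 4 panels.

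The 9 genes were used less in Wapl∆P1,2/∆P1,2 than in Wapl+/+ pre-B cells, with the exception of the 2 genes in reverse orientation. Together they took 5.30% to 6.20% of the joints in the mutant libraries, with a mean of 5.80% ± 0.389 (SD, n = 4), which was 3.49 percentage points below the Wapl+/+ mean and 62.4% of it. No mutant library reached the lowest Wapl+/+ library. All 7 genes in forward orientation fell, IGKV9-123 rose, and IGKV9-124 did not pass the test (limma on log2(share + 0.05%), Benjamini-Hochberg adjusted over 107 genes). Across all genes tested, 45.8% were called lower and 21.5% higher in mutant pre-B cells, and the median log2 difference was -0.18, against -0.70 for the 9 genes.

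IGKV17-127 had the lowest log2 difference of the 9. Its share was 1.11%, 1.10%, 1.17% and 1.03% in the Wapl+/+ libraries and 0.557%, 0.442%, 0.498% and 0.421% in the mutant libraries. The groups were far apart, with a log2 difference of -1.13 ± 0.0923 (SE, limma adjusted p = 3.86e-08). IGKV14-130, the most upstream of the 9, had 0.225%, 0.254%, 0.327% and 0.317% in Wapl+/+ and 0.135%, 0.0803%, 0.114% and 0.114% in mutant libraries. Every mutant library was below every Wapl+/+ library there too, with a log2 difference of -1.04 ± 0.129 (SE, limma adjusted p = 3.64e-06).

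IGKV11-125, the most used of the 9 genes, had 2.15%, 2.30%, 2.45% and 2.27% in Wapl+/+ and 1.42%, 1.18%, 1.22% and 1.29% in mutant libraries. Its rank among all VK genes went from 3 to 34, and the log2 difference was -0.82 ± 0.0766 (SE, limma adjusted p = 1.32e-07). IGKV14-126 went from 0.679% to 0.817% in Wapl+/+ to 0.395% to 0.430% in mutant libraries, a log2 difference of -0.81 ± 0.0867 (SE, limma adjusted p = 6.55e-07). IGKV17-121, the near-identical partner of IGKV17-127, had 1.38%, 1.37%, 1.55% and 1.31% in Wapl+/+ and 0.950%, 0.659%, 0.949% and 0.857% in mutant libraries, which did not overlap, with a log2 difference of -0.70 ± 0.104 (SE, limma adjusted p = 2.28e-05). With both genes of the pair added up, the log2 difference was -0.89 ± 0.0914 (SE, limma adjusted p = 4.61e-07).

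Among the family 9 genes, the changes ran in both directions. IGKV9-120 had 1.88%, 2.08%, 2.01% and 2.10% in Wapl+/+ and 1.41%, 1.30%, 1.37% and 1.32% in mutant libraries, a log2 difference of -0.56 ± 0.0701 (SE, limma adjusted p = 3.64e-06). IGKV9-129 fell from 0.594% to 0.666% in Wapl+/+ to 0.377% to 0.496% in mutant libraries, with a log2 difference of -0.55 ± 0.0965 (SE, limma adjusted p = 0.000115). Both were thus clearly separated between the genotypes.

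IGKV9-123 moved the other way. It had 0.481%, 0.471%, 0.497% and 0.534% in Wapl+/+ and 0.584%, 0.601%, 0.652% and 0.659% in mutant libraries, a log2 difference of 0.30 ± 0.0853 (SE, limma adjusted p = 0.00501). Every mutant library was above every Wapl+/+ library. This call was lost with Holm's adjustment (adjusted p = 0.138) and on the deposited percent values (limma adjusted p = 0.0840), with no change of direction. IGKV9-124, the next member upstream and also in reverse orientation, had 0.274%, 0.299%, 0.320% and 0.309% in Wapl+/+ and 0.304%, 0.265%, 0.270% and 0.265% in mutant libraries. These groups overlapped, and the 95% interval of the log2 difference ran from -0.30 to 0.09 (limma adjusted p = 0.325).

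In pre-B cells 8 of the 9 genes, all but IGKV9-124, had every mutant library on 1 side of every Wapl+/+ library, as had 58.9% of all genes tested. Of all 40 forward genes tested, 50% were called lower and 20% higher, and of the 66 reverse genes 43.9% were called lower and 22.7% higher. These percentages include the 9 genes. The 20 forward genes called lower hold all 7 forward members, and the 29 reverse genes called lower hold neither reverse member. They therefore do not show a split by orientation among the other genes. With only 2 reverse genes among the 9, a difference by orientation was not tested. The experiment numbers of the libraries have either 5 or 6 digits, a candidate batch with 2 libraries of each genotype in each, although neither the labels nor the study say that they mark one. Within the 5-digit and the 6-digit libraries alone, the summed share differed by -3.37 and -3.60 percentage points and IGKV9-123 by log2 differences of 0.29 and 0.32, and the 7 genes that fell ranged from -0.53 to -1.08 and from -0.43 to -1.18.

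**Figure D2:**
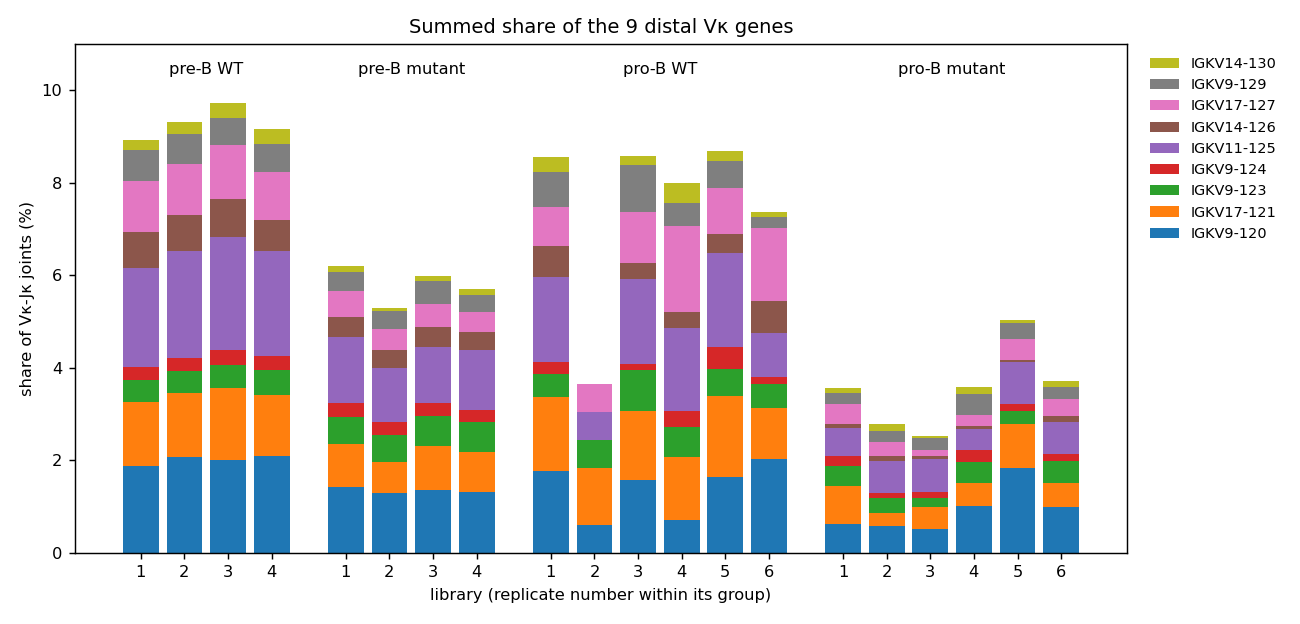
Summed share of all VK-JK joints (percent, vertical axis) of the 9 genes in each of the 20 libraries, stacked by gene, by genotype (WT, Wapl+/+, and mutant, Wapl∆P1,2/∆P1,2) and cell type. The mutant pre-B bars reach 5.30% to 6.20% against 8.93% to 9.73% for WT, and among the WT pro-B bars replicate 2 stands at 3.66% where the others reach 7.37% to 8.69%.

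In pro-B cells, whose deposited sums were low, the 9 genes together took a smaller share in mutant than in Wapl+/+ cells as well. The summed share was 8.56%, 3.66%, 8.58%, 7.99%, 8.69% and 7.37% in the Wapl+/+ libraries and 3.56%, 2.78%, 2.52%, 3.58%, 5.03% and 3.72% in the mutant libraries. The means were 7.48% ± 1.94 (SD, n = 6) and 3.53% ± 0.880 (SD, n = 6), a difference of -3.94 percentage points, and without Wapl+/+ replicate 2 the Wapl+/+ mean was 8.24% ± 0.560 (SD, n = 5) and the difference -4.71 points. Apart from that library, no mutant library reached the lowest Wapl+/+ library. Within the 5-digit and the 6-digit libraries the difference was -3.98 and -3.90 points.

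IGKV17-127, IGKV17-121 and IGKV11-125 fell in mutant pro-B cells, and no member rose (limma, adjusted over 104 genes). Across all genes tested, 13.5% were called lower and 12.5% higher, and the median log2 difference was -0.26, against -0.73 for the 9 genes. All 9 differences were negative on the scale of shares, as was the median of all genes tested. With libraries centred on their median, however, the differences of IGKV9-129 and IGKV9-124 turned positive. On the deposited values those of IGKV14-130, IGKV9-129, IGKV9-124, IGKV9-123 and IGKV9-120 did. The deposited values of all VK genes summed to 0.132% ± 0.0487 (SD, n = 6) in Wapl+/+ and 0.255% ± 0.0812 (SD, n = 6) in mutant pro-B libraries, the median log2 difference of all genes on that scale was 0.51, and none of the 9 genes was called there. The deposited values of the 9 genes summed to 0.0104% ± 0.00537 (SD, n = 6) in Wapl+/+ and 0.00886% ± 0.00316 (SD, n = 6) in mutant libraries, which overlapped, so that the mutant mean was 85.0% of the Wapl+/+ mean there and 47.3% on shares. The calls among all genes, 13 higher and 14 lower on shares, were 25 higher and 1 lower on deposited values and 17 higher and 5 lower with libraries centred on their median, so that the results for shares are relative to the other VK genes of the library.

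Among the 9 genes, the near-identical pair had the lowest adjusted p-values. IGKV17-127 ranged from 0.610% to 1.85% in Wapl+/+ (median 1.04%) and from 0.131% to 0.446% in mutant libraries (median 0.320%). These groups did not overlap, and the log2 difference was -1.72 ± 0.341 (SE, limma adjusted p = 0.00293). IGKV17-121 ranged from 1.10% to 1.75% (median 1.43%) in Wapl+/+ and from 0.289% to 0.942% (median 0.510%) in mutant libraries, again with no overlap, and differed by -1.27 ± 0.271 (SE, limma adjusted p = 0.00468). Both genes stayed called with each library left out in turn, and their sum differed by -1.52 ± 0.239 (SE, limma adjusted p = 0.000511).

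IGKV11-125 ranged from 0.610% to 2.03% (median 1.81%) in Wapl+/+ and from 0.464% to 0.893% (median 0.695%) in mutant libraries. Only Wapl+/+ replicate 2 reached into the mutant range. The log2 difference was -1.0 ± 0.296 (SE, limma adjusted p = 0.0234), and the call was lost without Wapl+/+ replicate 1, 3 or 5 or mutant replicate 4, with adjusted p-values of 0.0508, 0.0558, 0.0550 and 0.0540 by limma. It was also lost with libraries centred on their median (limma adjusted p = 0.137), with Holm's adjustment (0.344) and on deposited values (0.903).

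The other 6 genes were not called. IGKV14-126 ranged from 0% to 0.705% (median 0.377%) in Wapl+/+ and from 0.0496% to 0.132% (median 0.0718%) in mutant libraries, with a log2 difference of -1.45 (95% interval -2.68 to -0.23, limma adjusted p = 0.0736). Its mutant libraries were below all Wapl+/+ libraries but the one at 0. IGKV9-123 ranged from 0.504% to 0.886% (median 0.603%) in Wapl+/+ and from 0.197% to 0.462% (median 0.384%) in mutant libraries, which did not overlap, with a log2 difference of -0.73 (95% interval -1.37 to -0.10, limma adjusted p = 0.0796). The 3 genes whose libraries did not overlap, IGKV17-127, IGKV17-121 and IGKV9-123, compare with 15.4% of all genes tested.

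IGKV9-120 ranged from 0.610% to 2.04% (median 1.60%) and from 0.525% to 1.84% (median 0.807%), and its mutant replicate 5 was higher than 5 of the 6 Wapl+/+ libraries. IGKV14-130 (median 0.212% and 0.121%), IGKV9-129 (median 0.548% and 0.263%) and IGKV9-124 (median 0.204% and 0.151%) overlapped between the genotypes, with log2 differences of -0.53, -0.22 and -0.08 and limma adjusted p-values of 0.482, 0.800 and 0.921. IGKV14-130 rested on 0 to 6 multiples of the smallest value in a Wapl+/+ library and 1 to 10 in a mutant library, so that a difference of the size seen in pre-B cells lies within its interval (-1.64 to 0.57).

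The calls in pro-B cells varied with the library left out, and most with Wapl+/+ replicate 2. Leaving out any other library gave 2 or 3 calls among the 9 genes and 16 to 30 among all genes. Without Wapl+/+ replicate 2, 8 of the 9 genes were called lower, all but IGKV9-124, and 49 of all 104 genes tested (32 lower and 17 higher), against 27 with it (14 lower and 13 higher). The log2 difference was then -2.02 for IGKV14-126 (limma adjusted p = 7.59e-05), -0.96 for IGKV14-130 (0.0498), -0.83 for IGKV9-129 (0.0406), -0.76 for IGKV9-120 (0.0249) and -0.74 for IGKV9-123 (0.0406). Array weights, which give noisy libraries less weight, called 6 of the 9 genes and likewise 49 of all 104 (32 lower and 17 higher). The summed share of IGKV9-123 and IGKV9-124, the reverse genes, was 0.854% ± 0.201 (SD, n = 6) in Wapl+/+ and 0.529% ± 0.147 (SD, n = 6) in mutant pro-B cells, where in pre-B cells it had been 0.796% ± 0.0411 (SD, n = 4) and 0.900% ± 0.0280 (SD, n = 4).

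**Figure D3:**
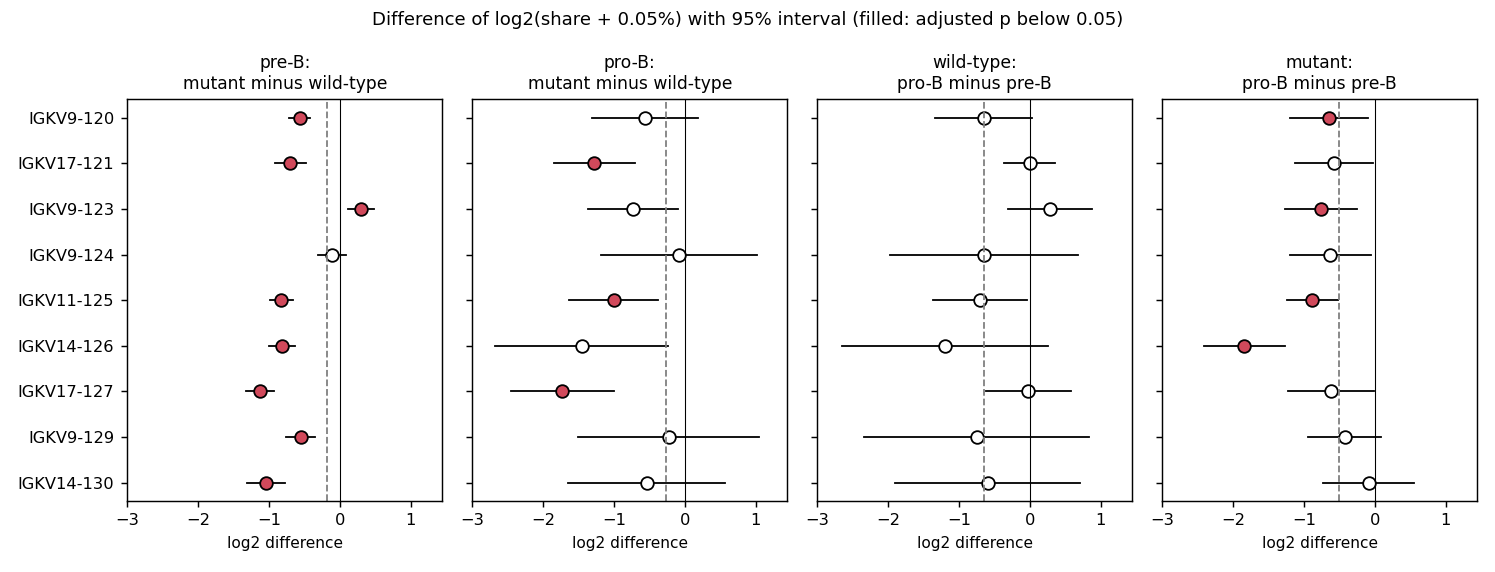
Difference of log2(share + 0.05%) for each of the 9 genes (horizontal axes) in 4 comparisons, with 95% intervals from limma (bars), an adjusted p below 0.05 as a filled point, and the median of all genes tested as a dashed line. In pre-B cells 7 filled points lie below 0 and IGKV9-123 lies above it, and in pro-B cells 3 are filled with wider intervals. Between the stages of Wapl+/+ cells no point is filled, which does not show that the stages are alike.

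On shares, IGKV9-123 was the one of the 9 genes whose libraries were separated in opposite directions in both cell types. It was higher in all mutant than in all Wapl+/+ pre-B libraries and lower in all mutant than in all Wapl+/+ pro-B libraries. On deposited values its log2 difference was positive in pro-B cells too, at 0.14, so that the directions were not opposite on that scale. The difference between both effects was -1.04 ± 0.348 (SE) on the log2 scale and did not pass the test of that difference (limma interaction term over 20 libraries, adjusted p = 0.186 over 106 genes, unadjusted p = 0.00702). It passed without Wapl+/+ pro-B replicate 2 (limma adjusted p = 0.0429), with array weights (limma adjusted p = 0.0122) and with percentages without a logarithm (limma adjusted p = 0.0472). None of the 9 genes passed this test, where 1.89% of all genes were called lower and 0% higher. An unadjusted p below 0.05 was found for 1 of the 9, IGKV9-123, and for 9 of all 106 genes. Without Wapl+/+ pro-B replicate 2, 2 of the 9 passed, the other being IGKV14-126 (limma adjusted p = 0.0429), whose difference between the effects was then -1.20, against -0.64 with it. The calls among all 106 genes rose from 2 to 10 (7 lower and 3 higher) when this library was left out. For the sum of IGKV17-121 and IGKV17-127 the difference between the effects was -0.63 (limma adjusted p = 0.536). For the other genes the intervals were wide, such as -0.94 to 0.95 for IGKV9-120, so that effects of the same size in both cell types were not shown.

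The comparison of pro-B with pre-B cells was made within each genotype. Between Wapl+/+ cells no member was called, by limma over 105 genes. An unadjusted p below 0.05 was found for 1 member, IGKV11-125, and for 35 of all 105 genes. Across all genes tested, 8.57% were lower and 10.5% higher in pro-B cells. These calls over all genes, 11 higher and 9 lower, turned on single libraries. They were 15 higher and 29 lower without pro-B replicate 2, with a median of -0.47, and 3 to 6 higher and 0 lower without any 1 of the pre-B libraries, and none of the 9 genes was called in these fits. The summed share was 1.81 percentage points lower in pro-B cells, and 1.04 points lower without replicate 2, and all 6 pro-B libraries lay below the lowest pre-B library, the nearest at 8.69% against 8.93%. With all libraries, the median log2 difference of the 9 genes, -0.65, was that of all genes tested, -0.65. The median of the 9 genes was not computed without replicate 2, where 4 of them were at 0. With 1 library left out, these 4 ranged widely. The ranges were -0.82 to -0.17 for IGKV14-130, -1.03 to -0.15 for IGKV9-129, -0.89 to -0.22 for IGKV9-124 and -1.42 to -0.63 for IGKV14-126. IGKV11-125 was below its pre-B range in all 6 pro-B libraries, with a log2 difference of -0.70 (95% interval -1.36 to -0.04, limma adjusted p = 0.129), and was the only one of the 9 genes without overlap, which 35.2% of all genes showed. With 1 library left out, the difference of IGKV11-125 ranged from -0.81 to -0.48. IGKV17-121 and IGKV17-127 had nearby means in both stages, 1.42% and 1.16% in pro-B against 1.40% and 1.10% in pre-B cells, with 95% intervals of the log2 difference of -0.36 to 0.36 and -0.62 to 0.58. Their sum differed by 0.02 (limma adjusted p = 0.894). For IGKV17-127 the sign of the difference changed with the total chosen, since it was -0.02 on shares and 0.33 with libraries centred on their median. IGKV9-123 had a positive difference, 0.28 (95% interval -0.31 to 0.88). With libraries centred on their median, the split of the calls among all genes moved from 11 higher and 9 lower to 15 higher and 0 lower, and without IGKV1-135 and IGKV19-93, the 2 most used VK genes, in the total it was 11 higher and 2 lower.

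In mutant cells the 9 genes took 2.26 percentage points less of the joints in pro-B than in pre-B cells, and the highest pro-B library (5.03%) was below the lowest pre-B library (5.30%). IGKV14-126, IGKV11-125, IGKV9-123 and IGKV9-120 were called lower and none higher (limma, adjusted over 100 genes), where 42.0% of all genes were called lower and 12% higher. The median log2 difference was -0.62 for the 9 genes and -0.51 for all genes. IGKV14-126 had the largest of these differences among the 9, going from 0.395% to 0.430% in pre-B to 0.0496% to 0.132% in pro-B libraries (median 0.0718%). Its log2 difference was -1.84 ± 0.270 (SE, limma adjusted p = 4.32e-05), and this was the only one of the 4 that was also called with libraries centred on their median (-1.23, limma adjusted p = 0.00177). IGKV11-125 and IGKV9-123 differed by -0.88 ± 0.170 (SE, limma adjusted p = 0.000474) and -0.75 ± 0.241 (SE, limma adjusted p = 0.0152), and neither overlapped between the stages. Neither gene of the near-identical pair was called alone (IGKV17-121 with a limma adjusted p of 0.0681 and IGKV17-127 with 0.0798), but their sum was, with a log2 difference of -0.61 ± 0.227 (SE, limma adjusted p = 0.0321), and 55 of 99 genes were called in that fit. IGKV9-120 differed by -0.64 (limma adjusted p = 0.0462) and lost this call in 9 of the 10 fits that left out a library, all except that without pro-B replicate 5. Its difference was -1.17 between the libraries with 5-digit experiment numbers and -0.12 between those with 6 digits.

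In 4 of the 9 genes, the 3 called first and IGKV9-124, the libraries of the stages did not overlap in mutant cells, against 41.0% of all genes. Centring the libraries moved the median of all genes from -0.51 to 0.10 and the calls from 12 higher and 42 lower to 33 higher and 19 lower, and under it the differences of IGKV14-130, IGKV9-129 and IGKV17-121 were positive, at 0.52, 0.18 and 0.03. The 5-digit libraries of both stages carry different leading digits, so that in this group a batch and the stage cannot be told apart. Among the 6-digit libraries the summed share differed between pro-B and pre-B cells by -1.43 points in Wapl+/+ and by -1.73 points in mutant cells.

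The pairs with identical signals were compared as ratios within a library, which do not depend on the total. IGKV9-120 was used 3.92 to 4.41 times as often as IGKV9-123 in Wapl+/+ pre-B libraries (mean 4.08 ± 0.229, SD, n = 4) and 2.00 to 2.42 times as often in mutant pre-B libraries (mean 2.17 ± 0.181, SD, n = 4). The ratio of IGKV17-121 to IGKV17-127 was 1.24 to 1.33 in Wapl+/+ (mean 1.27 ± 0.0398, SD, n = 4) and 1.49 to 2.04 in mutant pre-B libraries (mean 1.78 ± 0.238, SD, n = 4), although the assignment of reads that fit both genes leaves these single values uncertain. IGKV11-125 to IGKV14-130 stood at 7.18 to 9.52 in Wapl+/+ and at 10.6 to 14.7 in mutant pre-B libraries, with the upstream gene lower by a wider margin in mutant cells. None of these 3 ratios overlapped between the genotypes in pre-B cells, and all overlapped in pro-B cells, where IGKV9-120 to IGKV9-123 ranged from 1.0 to 4.0 in Wapl+/+ and from 1.41 to 6.17 in mutant libraries. The ratio of IGKV9-120 to IGKV9-129, both in forward orientation, was 3.21 ± 0.290 (SD, n = 4) in Wapl+/+ and 3.26 ± 0.344 (SD, n = 4) in mutant pre-B cells and overlapped. That of IGKV9-123 to IGKV9-124, both in reverse orientation, was 1.55 to 1.76 in Wapl+/+ and 1.92 to 2.48 in mutant pre-B cells and did not overlap. These ratios were picked after the values of the genes were known and were not tested.

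**Figure D4:**
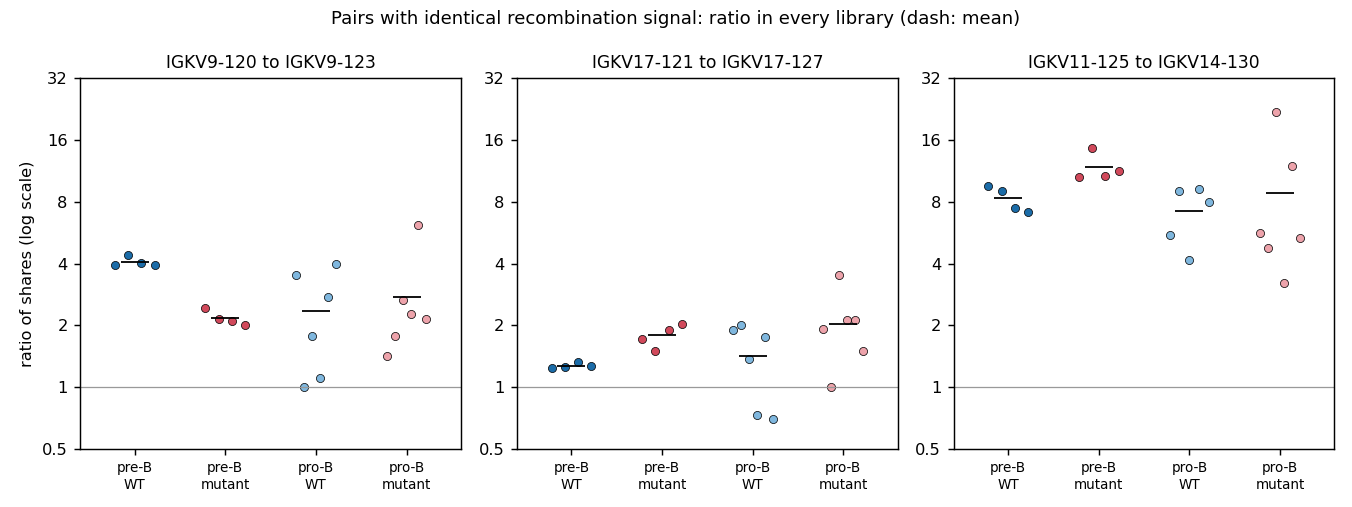
Ratio of the shares of 2 genes with identical recombination signals (vertical axis, log scale) in every library, for 3 pairs, with group means as dashes, for Wapl+/+ (WT) and Wapl∆P1,2/∆P1,2 (mutant) cells. In pre-B cells IGKV9-120 to IGKV9-123 goes from about 4 in WT to about 2 in mutant libraries and the other pairs move upwards, while the pro-B groups overlap. WT pro-B replicate 2 has no point for IGKV11-125 to IGKV14-130, since IGKV14-130 was at 0 there.

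Genes that lie among and beside the 9 were lower in mutant pre-B cells too. Of the 7 other VK rows from IGKV9-119 to IGKV1-133, 5 could be tested in pre-B cells, and all 5 were lower in mutant cells, with a median log2 difference of -1.13. IGKV1-122, between IGKV17-121 and IGKV9-123, went from 0.946% ± 0.0608 (SD, n = 4) to 0.407% ± 0.0632 (SD, n = 4), and IGKV1-132 and IGKV1-133, upstream of IGKV14-130, had log2 differences of -1.38 and -1.34, both beyond those of all 9 genes. IGKV9-128 and IGKV9-119, pseudogenes by the gene list, differed by -0.31 and -0.31. In mutant pro-B cells 3 of the 5 were lower (IGKV1-122, IGKV1-132 and IGKV1-133), with a median of -1.44. IGKV14-126-1 and IGKV1-131 were at 0 in all 20 libraries. No gene of this stretch other than IGKV9-123 was called higher in any of the 4 comparisons. Between the stages none of the 5 was called in Wapl+/+ cells, and in mutant cells both of the 2 that could be tested, IGKV1-122 and IGKV1-133, were lower in pro-B cells.

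**Figure D5:**
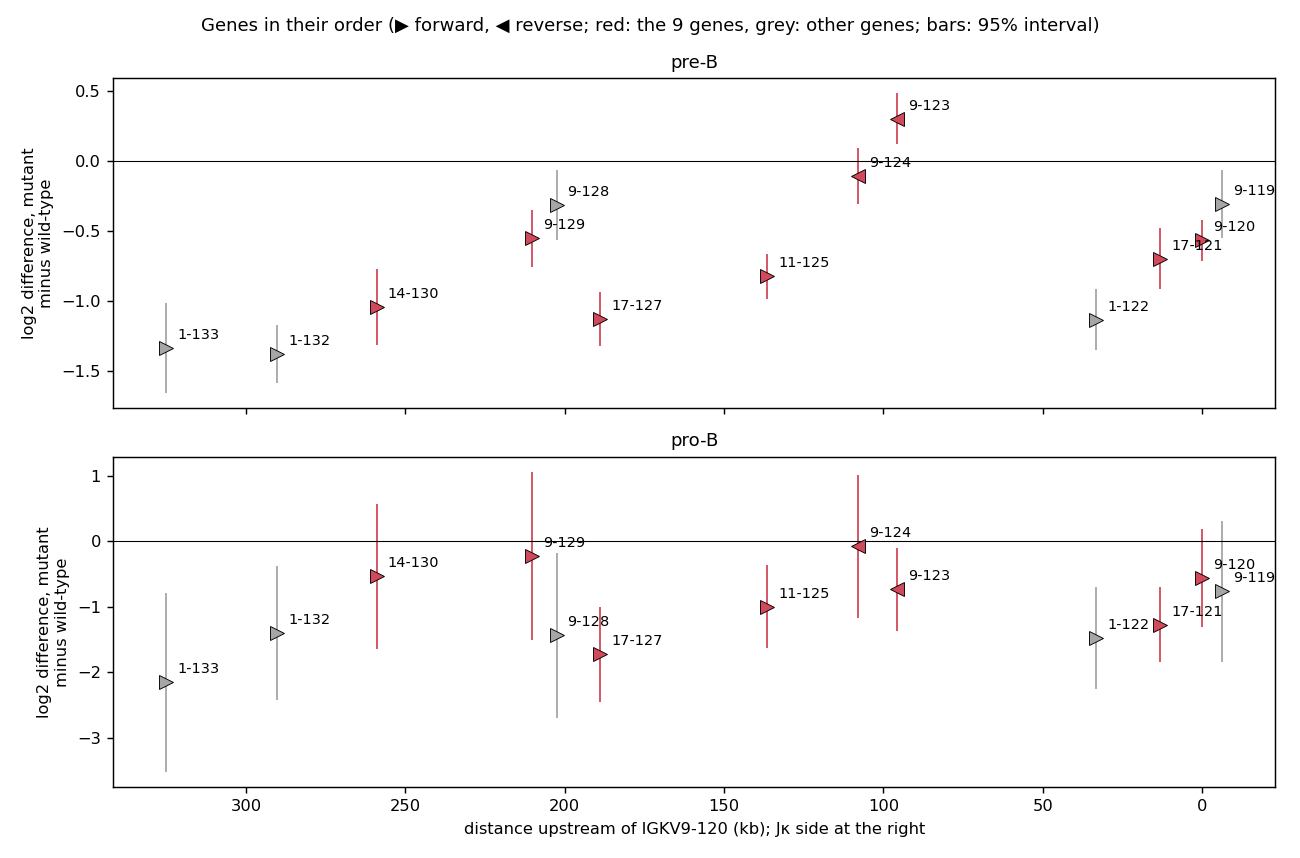
Log2 difference between mutant (Wapl∆P1,2/∆P1,2) and Wapl+/+ cells (vertical axes, with 95% intervals from limma) of the 9 genes (red) and of the other tested genes beside them (grey) against the distance upstream of IGKV9-120 in kb, for pre-B and pro-B cells. Triangles point right for forward and left for reverse genes, and IGKV14-126 is left out because its position is uncertain. In pre-B cells the 2 reverse genes lie near or above 0 while the forward genes on both sides lie below it.

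Of the 9 other rows of families 9, 11, 14 and 17 elsewhere in the locus, 7 were at 0 in all 20 libraries. Among them was IGKV17-134, which has the same recombination signal as IGKV17-121. It is a pseudogene by the gene list but an immunoglobulin V gene by the annotation. The 2 rows that could be tested, IGKV14-100 and IGKV14-111, lie nearer to the JK elements. IGKV14-100 was lower in mutant pre-B cells (log2 difference -0.36, limma adjusted p = 0.00313), and IGKV14-111 did not pass the test there (0.16, limma adjusted p = 0.118). IGKV14-111 was higher in pro-B than in pre-B cells of both genotypes, by 0.75 in Wapl+/+ (limma adjusted p = 0.0300) and by 0.56 in mutant cells (limma adjusted p = 0.00711), whereas IGKV14-126 had negative differences in both. The 11 higher calls between the Wapl+/+ stages became 3 to 6 without any 1 of the pre-B libraries. Whether IGKV14-111 stayed among them is not given here.

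Over all 20 libraries, the VK genes whose share was most like the summed share of the 9 genes were IGKV6-14 (Pearson's r = 0.926 between log2 values), IGKV8-23-1 (0.871) and IGKV8-16 (0.866), which are not among the neighbours. The gene most like IGKV17-121 was IGKV17-127 and the reverse (r = 0.843). For IGKV11-125 it was IGKV1-132 (0.859), for IGKV14-130 it was IGKV9-129 (0.802), for IGKV9-120 IGKV8-16 (0.899), for IGKV9-123 IGKV3-1 (0.771), for IGKV9-124 IGKV8-30 (0.885), for IGKV14-126 IGKV5-39 (0.939) and for IGKV9-129 IGKV8-21 (0.886). The points of these correlations share the total of their library and the 4 groups, and the values are descriptions.

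The deposited list of H3K27ac peaks, a mark of active promoters and enhancers, in the Rag1(Cre/Cre) pro-B cells held 956 peaks on chromosome 6. None of them lay in the interval of the 9 genes and 1 lay between the first and the last VK gene. The nearest peak, chr6:67215290-67220402, was 520.6 kb from IGKV14-130 and 779.6 kb from IGKV9-120. The list gives positions without usable scores and is 1 sample of pro-B cells, so that it says nothing of differences between genotypes or with pre-B cells.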

How the data were processed

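VDJ-seq libraries of the Igk locus (20 of 33 samples) were analysed. The authors sheared genomic DNA, ligated adapters with UMIs, extended biotinylated JK primers and sequenced on a MiSeq instrument, and deposited 1 percent value per VK gene and library. The H3K27ac ChIP-seq list was deposited by the authors with a score of 0 for every peak, and only positions on mm9 were used. Igh VDJ-seq files were not used and Hi-C samples were not analysed here. The submitters' processing notes name R 3.3.3, Bowtie2 2.2.9 and SAMtools 1.4, among others, and the builds mm9 and mm10, without tying them to a data type.

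Values were divided by their sum over the 163 VK genes of a library and multiplied by 100. Groups were compared with limma 3.58.1 in R 4.3.3 (empirical Bayes with trend) on log2(share + 0.05%), for genes with a mean share of at least 0.05% over the libraries compared, which all 9 genes passed in every comparison, with Benjamini-Hochberg adjustment over all genes tested and a threshold of 0.05. A fold change is on this scale and understates that of low genes. Only the groups compared entered a fit, and all 20 libraries entered the interaction. The script was tested on simulated data, among them sets with a log2 change of 1 in 30 genes. It recovered 30 of these in the pre-B and 13 in the pro-B genotype comparison. Between the stages it recovered 7 in Wapl+/+ and 24 in mutant cells, and for the interaction 9. A gene without a call may thus still differ. No p-value was computed for sums or ratios over the 9 genes. Recombination signals were read from the NCBIM37 genome at the coordinates of the study's gene list, moved by up to 3 bases, as the best match to CACAGTG, 12 bases and ACAAAAACC, and genes were compared with blastn 2.17.0+.

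The 9 genes and the gene lists were chosen with earlier results of these data known. Named genes are the 9, the other rows from IGKV9-119 to IGKV1-133, the other rows of families 9, 11, 14 and 17, the genes most similar over the libraries, and near-identical genes. Alternatives were the pseudocount (0.01% and 0.2%), the filter (none and 0.2%), no logarithm, Holm's adjustment, the digits of the experiment number as a covariate or each alone, array weights, other totals, the family 17 pair as a sum, medians, deposited values, and each library left out. No counts are given, so that no counting interval was derived. Figures were drawn with matplotlib 3.10.9.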

Additional observations from a re-analysis of the deposited data

Results flagged for a closer look

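Each of the 9 genes and their sum was checked in each group for a library far from the others, by the gap to its nearest neighbour over the range of the group (Dixon's 95% limit). Chance flags about 1 in 20 groups, and 4 of 40 were flagged. The summed share in Wapl+/+ pro-B replicate 2 was 3.66%, where the other 5 libraries had 7.37% to 8.69%. That library had 164 multiples of its smallest value, and the part of this in its low sum was not tested. IGKV9-120 stood at 1.84% in mutant pro-B replicate 5, where the others had 0.525% to 1.02%. IGKV9-123 stood at 0.886% in Wapl+/+ pro-B replicate 3, where the others had 0.504% to 0.642%. IGKV9-124 stood at 0.304% in mutant pre-B replicate 1, where the others had 0.265% to 0.270%.

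IGKV9-123 had opposite differences between the genotypes in both cell types, with every library of one genotype on one side in pre-B and on the other side in pro-B cells on shares, while on deposited values its difference was positive in pro-B cells too, at 0.14. The difference between both effects was -1.04 on the log2 scale and did not pass the limma interaction test (adjusted p = 0.186), with adjusted p-values from 0.0122 to 0.723 under the alternatives.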

How the results depend on the processing

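The count of the 9 genes called in mutant against Wapl+/+ pre-B cells was 8, and 7 or 8 under the alternatives. In pro-B cells it was 3, but 2 with Holm's adjustment or centred libraries, 4 with a pseudocount of 0.2% or without a logarithm, 6 with array weights, 0 on deposited values that were not rescaled, and 2 to 8 with 1 library left out. Between the stages of Wapl+/+ cells it was 0, but 2 without a logarithm and 3 with array weights. Between those of mutant cells it was 4, but 2 with Holm's adjustment, 8 with array weights and 1 with centred libraries. It was 3 with a pseudocount of 0.01%, without a filter or without IGKV1-135 and IGKV19-93 in the total. It was 5 with a pseudocount of 0.2%, a filter of 0.2%, no logarithm or the summed pair. All genes gave 47 to 57 calls in these fits. With 1 library left out it was 3 to 6, and all genes gave 44 to 58 calls. For the difference of both genotype effects it was 0, but 1 without a logarithm, 3 with array weights, and 0 to 2 with 1 library left out. The summed share kept its direction in all 4 comparisons under the other totals, medians, series alone and left-out libraries that were run for it, and moved by less than 1 SD. On deposited values, an alternative chosen after seeing the data and run for the genotype comparisons only, it moved in pro-B cells from -3.94 to -0.811 percentage points (of the mean total of the libraries). Between the Wapl+/+ stages it went from -1.81 to -0.944 percentage points without IGKV1-135 and IGKV19-93 in the total.

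Single genes changed sign as follows, all genes without a call as reported. In pro-B cells, IGKV9-129 and IGKV9-124 were at 0.073 and 0.18 with a pseudocount of 0.01%, at 0.11 and 0.25 with centred libraries and at 0.43 and 0.52 on deposited values, where IGKV14-130, IGKV9-123 and IGKV9-120 were at 0.069, 0.14 and 0.34. With 1 library left out IGKV9-129 ranged from -0.83 to 0.057 and IGKV9-124 from -0.51 to 0.17. Between the stages of Wapl+/+ cells, IGKV17-127 was at 0.058 percentage points without a logarithm, 0.16 without IGKV1-135 and IGKV19-93 in the total, 0.33 with centred libraries and -0.17 to 0.14 with 1 library left out, and IGKV17-121 at -0.059 to 0.071. Between those of mutant cells, IGKV14-130 was at 0.041 with array weights, 0.52 with centred libraries and -0.18 to 0.085 with 1 library left out, and centred libraries gave 0.18 for IGKV9-129 and 0.031 for IGKV17-121. For the difference of both effects, IGKV9-120 was at -0.0018 with a pseudocount of 0.01%, -0.13 with array weights, -0.065 without IGKV1-135 and IGKV19-93 and -0.21 to 0.14 with 1 library left out. IGKV9-124 was at -0.066 with a pseudocount of 0.2%, -0.039 percentage points without a logarithm, -0.50 with array weights and -0.41 to 0.27 with 1 library left out, IGKV9-129 at -0.00037 percentage points, -0.41 with array weights and -0.28 to 0.61, IGKV14-126 at 0.021 and IGKV11-125 at 0.19 percentage points without a logarithm, and IGKV11-125 at 0.22 with centred libraries. The cause of these changes was not tested.

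Over all genes, Holm's adjustment left 44 of 72, 7 of 27, 3 of 20 and 27 of 54 calls. Array weights gave 49, 63, 68 and 19 calls in pro-B cells, between the Wapl+/+ stages, between the mutant stages and for the difference of both effects, where shares without weights gave 27, 20, 54 and 2. In pro-B cells a pseudocount of 0.2% gave 30 calls and percentages without a logarithm 33. Without IGKV1-135 and IGKV19-93 in the total the Wapl+/+ stages gave 13 calls and the difference of both effects 1, as it did with centred libraries, and without a logarithm they gave 39 and 6. With 1 library left out, the Wapl+/+ stages gave 3 to 44 calls, pro-B cells 16 to 49 and the difference of both effects 2 to 10, the 10 being without Wapl+/+ pro-B replicate 2. On deposited values, pro-B cells gave 25 higher and 1 lower calls, and with centred libraries 17 higher and 5 lower, against 13 and 14. No paired analysis was possible because the labels carry no replicate numbers that are shared between groups.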
